A study of Mus musculus and Meriones unguiculatus with 4 samples.

Results

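Immediate-early response genes are genes whose transcription starts within minutes of a stimulus without new protein synthesis. The set described here holds 10 of them, Fos, Fosb, Jun, Junb, Jund, Egr1, Ier2, Ier3, Atf3 and Zfp36, chosen by gene symbol, out of 13325 genes that the mouse and gerbil tables share by symbol. Each of the 10 had a row in the mouse table and 9 had a row in the gerbil table. Jun in gerbil was not analysed here. The samples were wild-type gerbil (Meriones unguiculatus) tooth germs at embryonic day 15 and wild-type mouse tooth germs at embryonic day 13, with 2 libraries per species and 4 in all. The enamel knot region, a signalling centre of the dental epithelium, had been cut by laser microdissection from frozen sections of paraformaldehyde-fixed mandibular tooth germs, and the labels call the cells epithelial. The sources used here do not give the number of animals per library, so the spread between the libraries of a species may be technical. Libraries are named by a part of their column names, E23 and E21 for gerbil and SEK and PEK for mouse. What these parts mean is unexplained, and if they mark different stages or sites, the libraries of 1 species are not replicates.

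Growth factor and stress signals that run through MAP kinases reach these genes through the serum response factor and through CREB-family factors bound near their starts. Fos and Jun family proteins then pair through leucine zippers into AP-1, a transcription factor that can drive or restrain proliferation, and Egr1 is a zinc finger transcription factor of the same early wave. The transcripts are short-lived, and the level of several of them is known to rise when tissue is cut, warmed or dissociated.

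Promoters of 4 members are shown first, because these genes were higher in mouse than in gerbil and have mouse promoter entries. They are the 250 bases before the annotated start in mouse, from RefSeq on GRCm38.p6, written 5′ to 3′ on the gene's own strand. Ier3 lies at chr17:35821463-35821712 on the plus strand, Zfp36 at chr7:28379229-28379478 on the minus strand, Junb at chr8:84978749-84978998 on the minus strand and Jund at chr8:70697489-70697738 on the plus strand. The Zfp36 window lies inside the wider locus of the mouse table. Capitals mark matches to the motifs searched.
Ier3: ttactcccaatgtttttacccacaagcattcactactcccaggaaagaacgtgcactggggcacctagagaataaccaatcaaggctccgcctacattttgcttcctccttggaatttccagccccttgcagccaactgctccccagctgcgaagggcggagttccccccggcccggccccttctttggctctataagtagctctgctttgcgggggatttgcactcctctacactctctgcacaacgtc
Zfp36: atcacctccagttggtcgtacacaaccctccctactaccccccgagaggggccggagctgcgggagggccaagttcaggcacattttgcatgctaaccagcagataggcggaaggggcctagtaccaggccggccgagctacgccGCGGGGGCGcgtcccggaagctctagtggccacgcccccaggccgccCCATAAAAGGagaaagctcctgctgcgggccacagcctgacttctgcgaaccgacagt
Junb: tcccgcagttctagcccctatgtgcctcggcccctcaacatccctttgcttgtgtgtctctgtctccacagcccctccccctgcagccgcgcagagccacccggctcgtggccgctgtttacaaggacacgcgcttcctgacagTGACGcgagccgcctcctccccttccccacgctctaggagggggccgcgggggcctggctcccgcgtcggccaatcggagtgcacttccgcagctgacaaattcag
Jund: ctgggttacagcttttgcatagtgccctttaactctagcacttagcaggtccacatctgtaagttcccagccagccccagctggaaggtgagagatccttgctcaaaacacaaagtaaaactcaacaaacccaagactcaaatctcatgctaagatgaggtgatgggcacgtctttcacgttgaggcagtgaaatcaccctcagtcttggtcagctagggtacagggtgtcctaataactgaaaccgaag
The search covered both strands for the serum response element core, the CRE (TGACGTCA) and its short form TGACG, the AP-1 site TGANTCA, the EGR site GCGNGGGCG and TATAAA. The short form lies inside the full CRE, so a full match would count for both. In Zfp36 the capitals nearer the start are a serum response element core, 48 bases before the start, and those farther away are an EGR site. In Junb they are the CRE short form. The windows of Ier3 and Jund held none of these letters. Of the other members with an entry, Fos held the CRE short form at 2 places and TATAAA at 1, Fosb held the short form and an EGR site, Atf3 held the short form and Jun held none. The background share among 32851 mouse promoters of the same length was 1.47% for the serum response element core, 1.55% for the full CRE, 17.8% for its short form, 6.75% for the AP-1 site, 4.7% for the EGR site and 12.4% for TATAAA. A match is a string of letters in this window and not a measured binding site.

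The unit of the deposited values was FPKM per assembled locus in mouse and TPM per gene in gerbil, both per length of the gene model. Each library was rescaled to a sum of 1000000 over the shared genes, and these values are called levels below. The rescaling raised gerbil values more than mouse values. For Ier2 it took 0.23 TPM to 1.95 in gerbil E23 and 188 FPKM to 385 in mouse SEK. The deposited gerbil values of Fos, Fosb, Egr1, Ier2, Ier3 and Zfp36 were under 1 TPM in both libraries. Levels were compared as log2(level + 1), with the trend along transcript length removed from each library, over the 10162 genes whose level averaged 1 or more. Differences are gerbil minus mouse. To be called higher in gerbil or in mouse, a gene had to be 2-fold or more higher in each library of that species than in each library of the other. No significance test was run, because each table had its own normalization, and with 2 libraries a species the smallest two-sided p of an exact permutation test is 0.333. Of the 10 members, 8 entered this comparison. Fosb was under the minimum level and Jun lacked a gerbil value. Ier3 reached the minimum only through its mouse level. The depth of the libraries was not analysed here, so no interval or detection limit that needs it is given.

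Most of the immediate-early genes were lower in the gerbil region than in the mouse region. Of the 8 tested members, 6 were called higher in mouse (Ier2, Ier3, Egr1, Zfp36, Junb and Jund) and 0 were called higher in gerbil, while Fos and Atf3 met neither criterion. Over all tested genes, 14.7% were called higher in mouse and 13.4% higher in gerbil. The median difference was -2.81 over the 8 members and -0.02 over all tested genes. Without Ier3, which passed the minimum level through mouse alone, 5 of 7 were called higher in mouse and the median was -2.74. With neither centring nor length correction the median of all tested genes moved to 0.62, and 11.9% were then called higher in mouse and 29.7% higher in gerbil, while the same 6 members were called higher in mouse and 0 higher in gerbil. The exceptions were 2 members of the AP-1 class: Fos, whose libraries overlapped between species, and Atf3, whose gerbil libraries were above both mouse libraries by less than 2-fold. The summed level of the 9 shared members was 109 and 117 in gerbil E23 and E21, against 893 and 991 in mouse SEK and PEK.

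**Figure D1:**
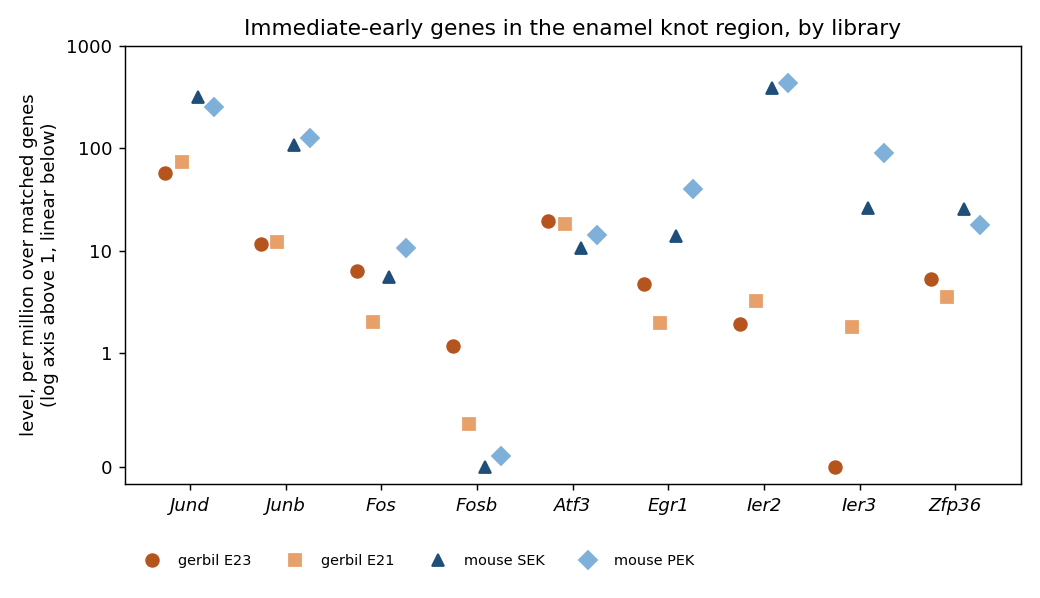
Level of each of 9 immediate-early genes (y axis, per 1000000 over the matched genes, logarithmic above 1 and linear below) in gerbil E23 and E21 and in mouse SEK and PEK, 1 point per library. Ier2 stands at 1.95 and 3.24 for gerbil, far under the mouse points at 385 and 438, whereas the Fos points of the species overlap and the Atf3 points lie close together.

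Ier2, which encodes a nuclear protein induced early by growth factors, had the widest separation. Its level was 1.95 in gerbil E23 and 3.24 in gerbil E21, against 385 in mouse SEK and 438 in mouse PEK. The gerbil libraries were far below both mouse libraries, with no overlap. The corrected log2 difference was -6.07 ± 0.41 (SE, n = 2 each), and the nearest libraries of the species were 45.0-fold apart on the corrected scale. On levels, without the length correction, the gerbil mean was 2.60 ± 0.91 and the mouse mean 411 ± 37.9 (SD, n = 2 each).

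Ier3, which encodes a protein that modulates cell survival under stress, was at 0 in gerbil E23 and 1.81 in gerbil E21, against 26.4 in mouse SEK and 89.7 in mouse PEK. Both gerbil libraries were low, and the mouse libraries differed from each other by more than 3-fold. The corrected log2 difference was -3.77 ± 1.29 (SE, n = 2 each). With the gerbil mean under the minimum of 1, Ier3 passed the filter through mouse, so its call is not independent of the filter.

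In the Jun family, which supplies the partner that AP-1 needs for DNA binding, Jund and Junb were both lower in gerbil. Jund, the member usually present in unstimulated cells, was at 58.1 in gerbil E23 and 73.7 in gerbil E21, against 318 in mouse SEK and 254 in mouse PEK. The groups did not overlap, and the corrected log2 difference was -1.52 ± 0.17 (SE, n = 2 each). Its call ended when a trend with GC content was removed as well (-0.33), and the Jund transcript is the most GC-rich of the 9 at 67.1% GC. The mouse Jund locus overlaps an annotated gene on the opposite strand, and the sources used here do not say whether counting used strand.

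Junb, a Jun protein that often opposes cell cycle entry, was at 11.8 in gerbil E23 and 12.1 in gerbil E21, against 109 in mouse SEK and 127 in mouse PEK. The libraries of each species lay close together and the species were far apart. The corrected log2 difference was -2.74 ± 0.21 (SE, n = 2 each). It was -1.57 with GC content removed as well, where the call remained. On levels, the mouse mean was 9.84 times the gerbil mean. Jun itself, the founding member, was at 15.1 FPKM in mouse SEK and 37.2 FPKM in mouse PEK, which correspond to levels of 30.8 and 84.7 with the mouse scaling. Its level was below those of Jund and Junb in both mouse libraries, and its locus overlaps the antisense gene Junos.

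The Fos family, which cannot bind DNA without a partner of the Jun family, showed no call. Fos was at 6.37 in gerbil E23 and 2.04 in gerbil E21, against 5.55 in mouse SEK and 10.6 in mouse PEK. The gerbil E23 level was above the mouse SEK level, so the groups overlapped. The corrected log2 difference was -0.75 ± 0.79 (SE, n = 2 each). Fosb had a very low level in all 4 libraries, at 1.19 in gerbil E23 and 0.377 in gerbil E21, listed at 0 in mouse SEK and at 0.0999 in mouse PEK.

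Atf3, a stress-induced factor of the ATF/CREB class that also pairs with Jun proteins, was the 1 tested member with a positive difference. Its level was 19.5 in gerbil E23 and 18.2 in gerbil E21, against 10.7 in mouse SEK and 14.2 in mouse PEK. The gerbil libraries were above both mouse libraries. The corrected log2 difference of 0.66 ± 0.24 (SE, n = 2 each) did not meet the criterion, and the nearest libraries were 0.36 apart on the corrected log2 scale. Without the length correction the difference was -0.06.

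Egr1, a zinc finger transcription factor that is a standard readout of MAP kinase activity, was at 4.76 in gerbil E23 and 1.96 in gerbil E21, against 14.1 in mouse SEK and 40.1 in mouse PEK. Both mouse libraries were above both gerbil libraries. The corrected log2 difference was -3.75 ± 0.69 (SE, n = 2 each). Zfp36, which encodes the RNA-binding protein tristetraprolin that promotes decay of AU-rich transcripts, was at 5.35 in gerbil E23 and 3.54 in gerbil E21, against 25.6 in mouse SEK and 17.7 in mouse PEK. The species did not overlap, and the corrected log2 difference was -2.88 ± 0.51 (SE, n = 2 each). The mouse Zfp36 locus also overlaps a gene annotated on the opposite strand.

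**Figure D2:**
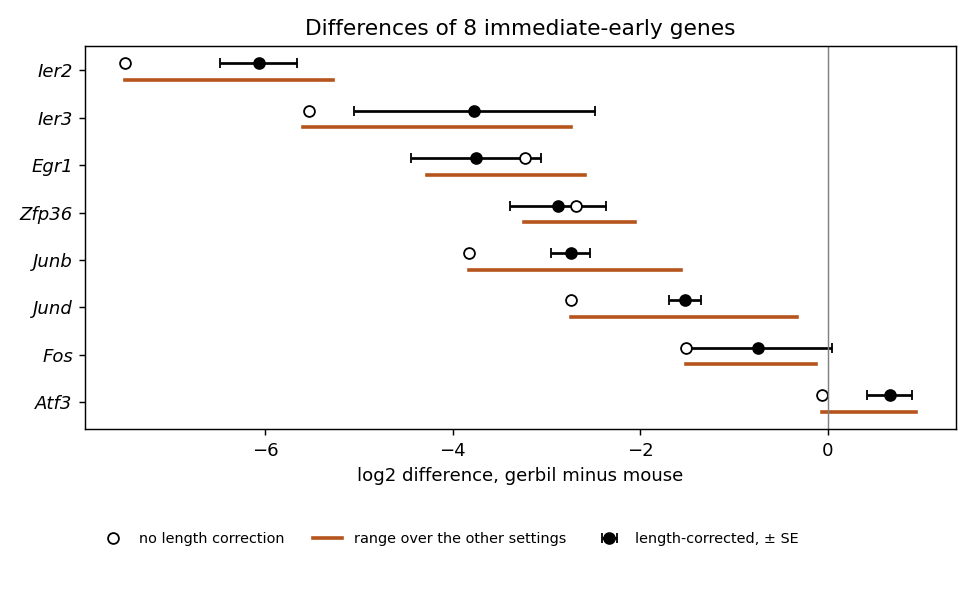
Log2 difference, gerbil minus mouse (x axis), for the 8 tested immediate-early genes, as length-corrected values with their SE (filled), without the length correction (open), and as the range over the other settings tried (lower line of each pair). The lines of Ier2, Ier3, Egr1, Zfp36, Junb and Jund lie below 0 along their whole length, and the line of Atf3 runs from -0.06 to 0.94.

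The order of the members differed between the species. In both gerbil libraries Jund was highest, followed by Atf3 and then Junb, and the remaining 6 were at levels of 6.37 or less. In both mouse libraries Ier2 was highest, followed by Jund and then Junb. Ier2 made up 1.79% and 2.77% of the summed level in gerbil E23 and E21, against 43.0% and 44.2% in mouse SEK and PEK. The ratio of Ier2 to Jund within a library was 0.0336 and 0.0440 in gerbil E23 and E21, against 1.21 and 1.73 in mouse SEK and PEK. The ratio of Junb to Jund was 0.203 and 0.165 in gerbil, against 0.342 and 0.501 in mouse. The ratio of Atf3 to Jund was 0.336 and 0.248 in gerbil, against 0.0338 and 0.0561 in mouse. The Fos to Jund ratio was 0.110 and 0.0276 in gerbil, against 0.0175 and 0.0419 in mouse, so here the libraries overlapped. By mean level, the gerbil order went on with Zfp36, Fos, Egr1, Ier2, Ier3 and Fosb, and each of these overlapped its neighbour except Ier2 and Ier3. The mouse order went on with Ier3, Egr1, Zfp36, Atf3, Fos and Fosb, where Ier3 overlapped Egr1 and Egr1 overlapped Zfp36. These ratios are within a library and carry no length correction.

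Ranks within a library avoid any scaling between the tables, and those given first carry no length correction. Ier2 stood at percentile 28.0 and 32.3 of the 13325 shared genes in gerbil E23 and E21, against 96.0 and 97.2 in mouse SEK and PEK. Junb stood at 40.5 and 40.8 in gerbil, against 86.1 and 88.2 in mouse. Jund was the highest-ranked member in gerbil, at 67.6 and 72.4, against 95.1 and 94.6 in mouse. Egr1 stood at 33.4 and 29.5 in gerbil, against 54.3 and 68.0 in mouse, and Ier3 at 9.33 and 29.1 in gerbil, against 64.6 and 83.3 in mouse. Zfp36 stood at 34.2 and 32.9 in gerbil, against 64.2 and 52.1 in mouse. Atf3 was at 46.0 and 44.7 in gerbil, against 50.04 and 48.7 in mouse. Fos stood at 35.5 and 29.7 in gerbil, against 41.2 and 44.6 in mouse. Fosb was ranked higher in gerbil, at 25.4 and 22.4, against 6.15 and 14.7 in mouse. After the length correction, among the 10162 tested genes, Atf3 was ranked higher in gerbil, at 36.6 and 33.8, against 26.1 and 30.5 in mouse, and the Fos libraries overlapped, at 19.9 and 12.0 in gerbil, against 17.2 and 25.5 in mouse. Both gerbil libraries of the other 6 members still ranked below both mouse libraries.

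Without correction the gerbil level relative to mouse was greater for longer transcripts. The median log2 difference was -1.80 among genes of 204 to 1416 bases and 1.43 among those of 7222 bases or more. The tested members had mouse transcript lengths of 1131 to 4484 bases. Among the other 6441 tested genes in that range, 14.3% were called higher in mouse and 12.9% higher in gerbil on the corrected scale, with a median difference of -0.02. Without the length correction, the same 6 members were called higher in mouse, where 19.4% of all tested genes were, and 0 higher in gerbil, where 18.4% were. The correction brought the shortest members nearer to 0, Ier2 at -6.07 against -7.49 uncorrected and Ier3 at -3.77 against -5.53. It took Egr1, the longest tested member, the other way, at -3.75 against -3.23.

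**Figure D3:**
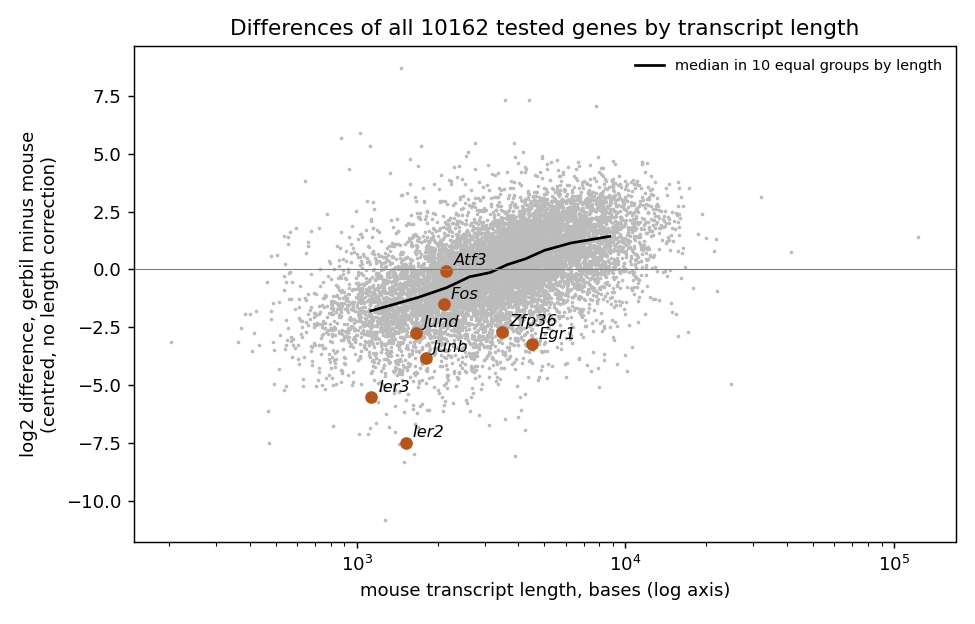
Log2 difference, gerbil minus mouse, centred but without length correction (y axis), against mouse transcript length in bases (x axis, logarithmic) for 10162 tested genes (grey), with the median in 10 equal groups by length (line) and the 8 tested immediate-early genes named. Ier2 at -7.49, Ier3 at -5.53 and Junb at -3.82 lie below the line, and Atf3 at -0.06 lies just above it.

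The gene models differed in span between the tables. The gerbil gene spans 1035 bases for Junb and 1026 for Jund, whereas the mouse loci span 1840 and 2878 bases. For Ier2 the spans are 666 bases in gerbil and 1522 in mouse, and for Ier3 they are 584 and 1240. Egr1 spans 3970 and 5162 bases, and Zfp36 spans 2242 and 3470. For Fos the spans are 3289 and 3388 bases, and for Atf3, introns included, 10036 and 47744. When a trend with the ratio of gerbil to mouse span was removed as well, the same 6 members were called higher in mouse, with differences of -5.99 for Ier2, -3.66 for Ier3, -2.60 for Junb and -1.39 for Jund. These spans include introns, so that trend does not measure exon sequence missing from a gerbil model. Whether the shorter gerbil models account for part of these differences was not tested. In the GRCm38 coordinates of the mouse table, Ier2 (ENSMUSG00000053560) spans chromosome 8 positions 84661331 to 84662852 and Junb (ENSMUSG00000052837) positions 84976909 to 84978748, with 314056 bases between them. Jund (ENSMUSG00000071076) lies on the same chromosome at 70697739 to 70700616, and Ier3 (ENSMUSG00000003541) lies on chromosome 17 at 35821684 to 35822923.

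Libraries of the same species also differed in some members. In mouse, Ier3 was more than 2-fold lower in SEK than in PEK, with a corrected log2 difference of -2.06 (SEK minus PEK), and it was the 1 tested member past that fold, where 8.44% of all tested genes were. Egr1 (-0.92), Fos (-0.90), Ier2 (-0.58), Atf3 (-0.47) and Junb (-0.42) were also lower in SEK but by less than 2-fold, Jund was at 0.00 and Zfp36 was higher in SEK (0.82). None of the 8 was 2-fold or more higher in SEK, where 7.44% of all tested genes were. In gerbil, Fos (1.29, E23 minus E21) and Egr1 (1.03) were more than 2-fold higher in E23, as were 6.03% of all tested genes. Ier3 (-1.55) was more than 2-fold lower in E23, where it was listed at 0, and 3.68% of all tested genes were at least 2-fold lower in E23. With 1 library on each side, these values have no replicate check.

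Other immediate-early and early response genes were lower in gerbil in part. The list held 51 symbols, of which 40 were matched and 36 tested. Of the 36 that were tested, 13 were called higher in mouse and 0 higher in gerbil, with 23 meeting neither criterion and a median difference of -1.05, where 14.7% of all tested genes were called higher in mouse. Values after ± are SE with n = 2 each. Cebpb, a bZIP factor of stress and differentiation, was at 4.67 and 7.24 in gerbil E23 and E21 against 564 and 175 in mouse SEK and PEK, a corrected log2 difference of -4.70 ± 0.71 (SE, n = 2 each). Zfp36l2, a relative of Zfp36, was at 5.95 and 9.20 in gerbil against 56.6 and 183 in mouse (-4.44 ± 0.70). Dusp2, which encodes a phosphatase that switches MAP kinases off, was also higher in mouse (-3.59 ± 0.32). The relative Zfp36l1 (0.23 ± 0.23) and the small GTPase gene Rhob (1.05 ± 0.42) had high levels and met neither criterion. Without mouse PEK, which makes the criterion easier to meet, Rhob was called higher in gerbil (1.41), as were 19.1% of all tested genes. Myc, the growth-promoting transcription factor, was singled out after its values were seen and was at 35.9 and 31.3 in gerbil against 151 and 189 in mouse (-2.45 ± 0.25).

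AP-1 partners, regulators and feedback genes were mostly not called, and all that were called except Atf1 were higher in mouse. All tested genes gave 14.7% higher in mouse and 13.4% higher in gerbil, beside which the counts of these lists stand. The lists held 16 symbols of bZIP partners, 32 of upstream regulators and 24 of feedback and decay genes, not all of which could be tested. Of the 12 tested bZIP partners, 4 were called higher in mouse and 0 in gerbil, with a median of -0.59. The called genes included Batf3 (-2.20 ± 0.43), not called with GC content also removed, and Creb5 (-1.29 ± 0.21), whose call ended without the length correction (0.17). Atf2 (0.53 ± 0.26) and Nfe2l1 (0.44 ± 0.12) met neither criterion, and with neither centring nor length correction both were called higher in gerbil (1.78 and 1.89). Of the 22 upstream regulators, 4 were called higher in mouse and 1 in gerbil, with a median of -0.15. Atf1, a CREB-family factor, was higher in gerbil (1.98 ± 0.31), while the Ras gene Hras (-2.81 ± 0.62) and the MAP kinase kinase gene Map2k2 (-1.84 ± 0.24) were higher in mouse, Map2k2 not with GC content also removed. Srf, which encodes the serum response factor (0.23 ± 0.45, singled out after its values were seen), met neither criterion but was called higher in gerbil with GC content also removed (1.43). Of the 19 feedback and decay genes, 4 were called higher in mouse and 0 in gerbil, with a median of -0.40. These were Zfp36l2, Dusp2, Hnrnpd and, named to complete the 4, Dusp1 (-2.30 ± 0.54). The list of early response genes also holds Zfp36l2, Dusp2 and Dusp1, so their calls are counted in both lists. Hnrnpd, an RNA-decay factor gene (-2.93 ± 0.33), was not called with neither centring nor length correction. The MAP kinase feedback genes Dusp6 (0.42 ± 0.78) and Spry2 (1.82 ± 0.66) met neither criterion. Spry2 was called higher in gerbil in 4 alternatives, at 1.84 with rows of a symbol summed, 1.90 with the span ratio removed, 2.10 without gerbil E23 and 2.50 without mouse PEK. Without mouse PEK, Dusp6 was also called higher in gerbil, at 1.21. Leaving out a library makes the criterion easier to meet. Without mouse PEK 19.1% of all tested genes were called higher in gerbil, and without gerbil E23 16.5%.

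**Figure D4:**
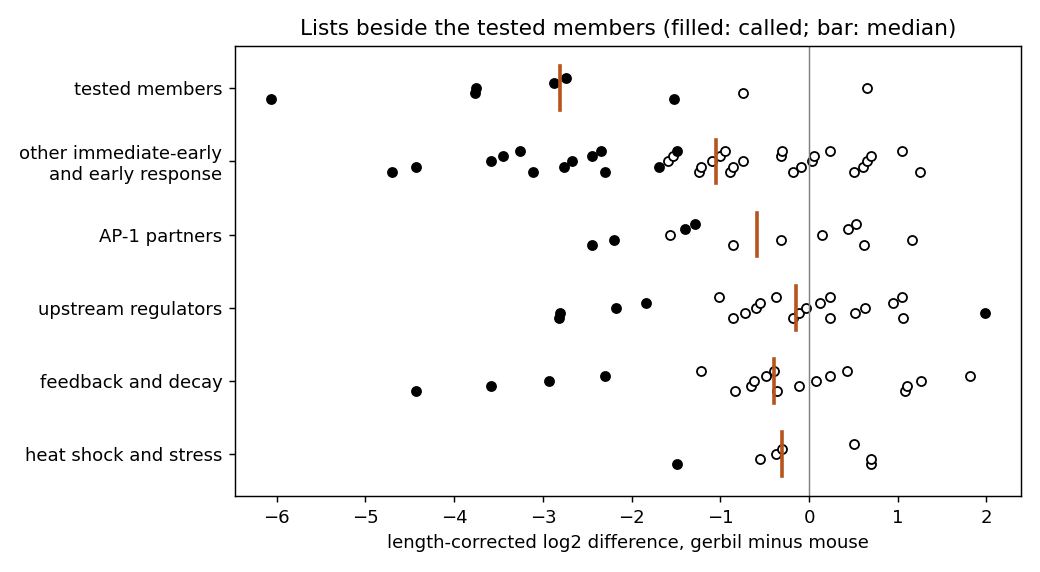
Length-corrected log2 difference, gerbil minus mouse (x axis), of the 8 tested members and of the genes of 5 lists, 1 point per gene, filled where the gene was called and open where it was not, with the median of each group as a bar. The bar stands at -2.81 for the members, -1.05 for other immediate-early and early response genes, -0.59 for AP-1 partners, -0.15 for upstream regulators, -0.40 for feedback and decay genes and -0.30 for heat shock and stress genes.

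The tested genes of heat shock and cell stress were mostly not called. Of 12 listed, 7 were matched by symbol, while Hspa1a, Hspa1b, Hsph1, Hspa8 and Hmox1 were not, so these 5 were not compared. Of the 7 tested, the small heat shock gene Hspb1 was called higher in mouse (-1.49 ± 0.31), though not with GC content also removed (-0.51), and 0 were called higher in gerbil, with a median of -0.30. The chaperone gene Hsp90aa1 (0.70 ± 0.20, called higher in gerbil at 1.36 with neither centring nor length correction) and Txnip (0.51 ± 1.00) met neither criterion. The dissected tissue held epithelial markers in all libraries, with a summed level of 8306 and 9429 over 9 markers in gerbil E23 and E21 against 7804 and 5543 in mouse SEK and PEK. Krt5 (4586 and 6042 against 2378 and 1624) and Cdh1 (283 and 313 against 39.3 and 52.2) were called higher in gerbil, Krt5 not without the length correction. Krt14 (1373 and 1030 against 2843 and 1739) and Epcam (323 and 313 against 645 and 529) met neither criterion. These 4 markers were chosen after their values were seen. The knot marker Shh was at 1186 and 963 against 609 and 946 and met neither criterion. Of the 8 knot markers, the 4 called higher in mouse were Cdkn1a, Wnt10a, Fgf4 and Fgf9, and 0 were called higher in gerbil. Cdkn1a was at 37.1 and 60.0 against 1019 and 1565, a corrected log2 difference of -5.07. Wnt10a was at -3.55, Fgf4 at -2.84 and Fgf9 at -1.06, Fgf9 not called without the length correction. The summed level of 8 enamel knot markers was 1447 and 1340 in gerbil against 2428 and 3786 in mouse, and that of 10 mesenchyme markers was 3479 and 1952 against 1265 and 900.2. The sum of 8 muscle markers was 60.9 and 42.4 in gerbil, where Myod1 was listed at 0 in both libraries, against 684 and 149 in mouse. Endothelial markers summed to 108 and 7.69 in gerbil and to 20.1 and 8.52 in mouse, blood and immune markers to 27.1 and 6.11 and to 12.8 and 106, and neural markers to 15.7 and 17.1 and to 46.9 and 23.5. The blood and immune sum covers 5 matched of 11 listed markers. Hbb-y alone was at 103 in mouse PEK and was listed at 0 in both gerbil libraries. Of the tested markers, 1 of 8 epithelial, 4 of 8 knot, 1 of 10 mesenchyme, 3 of 8 muscle and 1 of 2 neural genes were called higher in mouse, and 2 epithelial and 1 of 4 blood and immune genes higher in gerbil, where all tested genes gave 14.7% for mouse and 13.4% for gerbil. The part of these markers in the differences of the immediate-early genes was not tested. In these sections fewer cells with a transcript and less transcript per cell cannot be told apart.

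The genes whose pattern over the 4 libraries was nearest to the median pattern of the tested members, by Euclidean distance of corrected log2 deviations among 8085 genes whose level averaged 10 or more, were Kit (distance 0.13), Ndufa5 (0.181), Med31 (0.197), Dusp28 (0.207) and Ccdc84 (0.222). Their differences were -2.40, -2.39, -2.22, -2.42 and -2.53, and all 5 were called higher in mouse. Both follow from the choice, since the genes were picked for their nearness to a pattern higher in mouse. Kit was not called with neither centring nor length correction (-0.86). Kit encodes a receptor tyrosine kinase and Ndufa5 a subunit of respiratory complex I.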

How the data were processed

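RNA from laser-dissected enamel knot regions was sequenced as 4 libraries, 2 gerbil and 2 mouse, made by a SMARTer kit, per the labels' protocols. RSEM 1.3.1, STAR 2.7.1a, cutadapt 2.8 and the builds GRCm38 and mm10 come from the submitters' processing notes, which give no roles. The sources used here give no gerbil build. Per the file headers, the authors deposited FPKM per assembled mouse locus and TPM per gerbil gene. A further 4 gerbil columns, with reads and RPKM, were examined but no printed value comes from them. The names of all gerbil columns, TPM included, give the group and not the sample, so 1 measure per library was kept. Depth was therefore not analysed here and no count model was run.

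Genes were matched by symbols that occur once in each table. Length is the exon union of GENCODE M21 on GRCm38, and the trend was a running median over 40 bins, tested on simulated data. Members and lists were chosen with earlier results of these data known. From each list the text names up to 3 called genes per direction, by the gap between nearest libraries, and the 2 highest that were not called, except where stated. Some genes that this rule names are not reported here. The promoters are the members called higher with an entry outside chromosome 18. Ier2 had none. Python 3.11.15, numpy 2.4.6, pandas 2.3.3, scipy 1.17.1 and matplotlib 3.10.9 were used.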

Additional observations from a re-analysis of the deposited data

How the results depend on the processing

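Under 17 alternatives, 2 of them (the span ratio and leaving out Ier3) chosen after seeing the data, 0 members were called higher in gerbil. Of all tested genes 5.65% to 29.7% were, depending on the alternative. A minimum of 10 in each species left 3 members, of which 2 were called higher in mouse, with a median of -1.45. Of all genes tested at that minimum, 11.3% were called higher in mouse and 10% higher in gerbil. With GC content also removed the median was -2.12, and 14% of all tested genes were called higher in mouse and 11.6% in gerbil. The Jund call ended there (-0.33) and under a 3-fold criterion, where 8.15% of all tested genes were called higher in mouse and 5.65% in gerbil. The alternatives other than the minimum of 10 gave 5 or 6 calls, where 8.15% to 20.2% of all tested genes were called higher in mouse. Leaving out each library in turn gave 6 each time, with medians of -2.84 to -2.64. With a library left out the criterion is easier to meet, so these calls could hardly be lost and this is no check of them. Of all tested genes, 18.5% to 20.2% were then called higher in mouse and 16.5% to 19.1% higher in gerbil. Ier2 ranged from -7.49 to -5.28, Ier3 from -5.60 to -2.74, Egr1 from -4.28 to -2.59, Zfp36 from -3.24 to -2.06 and Junb from -3.82 to -1.57, each called in every alternative that tested it. Fos (-1.52 to -0.12) and Atf3 (-0.06 to 0.94) were called in none. Creb5 turned to 0.17 without the length correction and to 0.80 with no centring either. Ranks among all rows of a table or after the length correction shifted the members' median percentile, in gerbil E23 to 51.2 and 17.2. The planned use of gerbil RPKM is not given, since 1 measure was kept for each gerbil library. No paired analysis was possible because the columns carry no sample number. The precision that depth gives to the low gerbil levels of Ier2, Ier3 and Fosb was not analysed here.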
